A study of Mus musculus with 24 samples.

Results

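Whole livers of mice that lack KEAP1 in hepatocytes were compared with control livers on Affymetrix arrays. The comparison held 6 of the 24 samples of the series. They were chosen by their titles, 3 naming the liver of a KEAP1Δhepa mouse and 3 the liver of a NEMOf/f mouse. Per the labels all animals were males aged 8 weeks, and they name no strain. KEAP1Δhepa mice came from a cross of Alfp-Cre mice, whose Cre is driven by albumin and alpha-fetoprotein control elements, with mice carrying floxed KEAP1 alleles (KEAP1f/f). The controls carried floxed NEMO alleles, not floxed KEAP1 alleles, and the labels do not say whether they carried Cre. Loss of KEAP1 and any other difference between these 2 lines therefore cannot be told apart. KEAP1 loss was also read on 2 further sets of 6 arrays. The first held the livers of NEMOΔhepa mice and of NEMOΔhepa/KEAP1Δhepa double knockouts, both lacking NEMO in hepatocytes. The second held primary hepatocytes of KEAP1Δhepa and NEMOf/f mice, released with collagenase and cultured until at least the next day. The titles number the mice of a group from 1 to 3 and say nothing of litters, so p-values measure the spread between these samples. In whole tissue, fewer cells of a type and less RNA per cell cannot be told apart.

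KEAP1 is the substrate adaptor of a ubiquitin ligase that keeps the transcription factor NRF2, the product of Nfe2l2, short-lived. When KEAP1 is lost or its cysteines are modified by electrophiles, NRF2 accumulates, pairs with small MAF proteins and binds antioxidant response elements. Its known targets in liver make and recycle glutathione, supply NADPH, reduce quinones and carbonyls, conjugate foreign compounds and pump the conjugates out of the cell.

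The core of the antioxidant response element was searched in RefSeq promoter windows (build GRCm38.p6), which run from 250 bases before to 50 bases after a gene's start. The core was written TGACNNNGC, or GCNNNGTCA on the other strand, where N is any base. It was present in 13.3% of the 18155 windows of all measured genes, in 16.8% of the 358 windows of genes that rose and in 12.6% of the 135 windows of genes that fell. Of 16 reductase and glutathione genes that rose, 14 had a window and 3 held the core. They were Akr1c19, Ugdh, an enzyme that makes UDP-glucuronic acid, and Gclm, the modifier subunit of glutamate-cysteine ligase. The windows of Nqo1, Cbr3, Gpx2 and Slc7a11 did not hold these letters, and a match describes letters only. The stretches of Ugdh and Gclm are shown because their cores lie wholly before the gene's start. The core of Akr1c19 does not, and it is not printed. Each is written 5′ to 3′ on the gene's strand, with the core in capitals.
Ugdh, chr5:65435940-65436000, minus strand, core ending 123 bases before the gene's start: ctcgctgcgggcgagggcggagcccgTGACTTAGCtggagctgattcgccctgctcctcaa
Ugdh, chr5:65435902-65435962, minus strand, core ending 85 bases before the gene's start: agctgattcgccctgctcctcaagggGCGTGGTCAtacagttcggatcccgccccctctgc
Gclm, chr3:122245397-122245457, plus strand, core ending 125 bases before the gene's start: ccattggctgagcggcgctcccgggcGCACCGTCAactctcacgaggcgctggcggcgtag

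The labels were checked first. Keap1 was at 6.04, 6.35 and 5.88 (log2) on controls 1, 2 and 3 and at 5.47, 5.38 and 5.76 on the knockouts. All knockouts lay below all controls, and the groups were close. The difference was -0.66 ± 0.16 without control 3 (standard error of the fit, n = 3 knockouts and 2 controls, adjusted p = 0.0529 by limma) and -0.55 ± 0.15 with all arrays (adjusted p = 0.617). No source used here places the probes against the exons removed by Cre, and cells other than hepatocytes keep Keap1. Alb, the serum albumin of hepatocytes, was between 13.13 and 13.35 on all liver arrays. Xist was at most 2.56 there and the Y-linked Eif2s3y at least 6.74, as males have them.

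The array labelled control 3 did not resemble the other controls. Nqo1, a quinone reductase and a standard NRF2 target, was at 4.71 and 5.37 on controls 1 and 2, at 9.17 on control 3 and at 9.01, 9.0 and 8.60 on the knockouts. The same array correlated with the knockouts at a mean r of 0.9922 over 18820 genes and with controls 1 and 2 at 0.9808. On the first principal component of the 6 arrays, which held 50.1% of the variance, controls 1 and 2 lay at -36.7 and -29.9. Control 3 lay at 21.2 and the knockouts at 17.3, 9.9 and 18.1. The array labelled control 3 also carried Ikbkg, the gene of NEMO, at 6.40, below the 6.86 and 6.81 of controls 1 and 2 and within the 6.18 to 6.47 of the double knockouts, with the NEMO knockouts at 6.26, 6.25 and 6.14. Gpx2 was at 9.16 on it and at 9.10, 9.06 and 9.23 on the double knockouts. Col1a1 was at 7.70 on it, at 7.66, 7.70 and 9.39 on the double knockouts and at 6.99 or less on the KEAP1 knockouts. The mean r of control 3 was 0.9888 with the double knockouts and 0.9866 with the NEMO knockouts. Its r ranged from 0.9778 to 0.9943 with single double knockouts and from 0.9911 to 0.9933 with single KEAP1 knockouts. The highest r was thus with a double knockout, while another double knockout, at 0.9778, lowered the mean of that group. Of 24 cell cycle genes 22 were highest on control 3 among the 6 arrays. Mki67, a marker of dividing cells, was at 6.41 on it, against at most 5.19 on the other 5 and between 6.18 and 7.02 on the double knockouts. Results are therefore given with and without control 3, and with it no gene passed the test. Because that array was doubted for its NRF2 target levels, leaving it out is not an independent choice for NRF2 targets, and it leaves 2 controls. Below, "rose" and "fell" mean a limma adjusted p under 0.05 without control 3, and a difference of 1 on the log2 scale is a 2-fold change.

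With all 6 arrays limma called 0 of 18820 genes. Before adjustment 1447 (7.69%) were under 0.05. The knockouts lay above all 3 controls for 976 genes (5.19%) and below all 3 for 1214 (6.45%). Without control 3, 345 genes rose (1.83%) and 152 fell (0.808%), or 2.64% in either direction. Of the risen genes 135 rose by at least 1 and 29 by at least 2, and of the fallen genes 55 fell by at least 1 and 12 by at least 2. The median change was 0.84 among the risen and -0.85 among the fallen, which the selection sets in part. Leaving out control 1 as well, which leaves 1 control array assumed to vary like the other groups, gave 148 calls, and leaving out KEAP1 knockout 1 or 3 gave 244 and 328. The calls that passed each time another of the 5 arrays was left out were 86 risen and 24 fallen genes. Without liver double knockout 3, which enters the spread only and which carried the fat cell transcript Adipoq at 7.17, 699 genes rose (3.71%) and 291 fell (1.55%). The split by direction depended on the scaling. As deposited 69.4% of the calls were higher, with a median over all genes of -0.03, while with each array centred on its median 40.5% of the calls were higher and the median over all genes was -0.19, a shift of -0.16. Under that centring 159 genes rose and 234 fell, and none of the called genes named here changed direction.

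**Figure D1:**
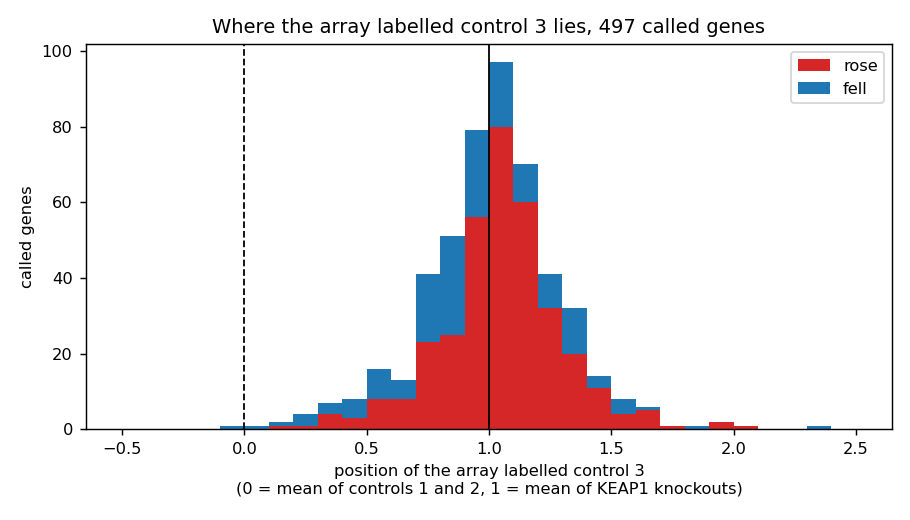
Histogram of the position of the array labelled control 3 for the 497 called genes, as a share of the distance from the mean of controls 1 and 2 (0) to the mean of the 3 knockouts (1), with risen and fallen genes stacked. The median position was 1.05 for risen and 0.93 for fallen genes, and few genes lie near 0.

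Control 3 lay nearer to the knockouts than to controls 1 and 2 for 336 of the 345 risen genes (97.4%) and for 138 of the 152 fallen genes (90.8%). It was at or beyond the knockout mean for 216 of the risen genes. The histogram of its position places most called genes around the knockout mean. Among the called genes the knockouts were above all 3 controls for 57 of the 345 risen and below all 3 for 52 of the 152 fallen. Over all genes, the knockouts were above controls 1 and 2 for 3255, of which 976 were above all 3 controls. They were below controls 1 and 2 for 3548, of which 1214 were below all 3. For 9 risen and 14 fallen genes control 3 was nearer to the other controls.

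The largest rises belonged to Cbr3, Gpx2 and Slc7a11. Cbr3, a carbonyl reductase, was at 3.19 and 2.92 on controls 1 and 2, 9.76 on control 3, and 9.57, 9.85 and 9.57 on the knockouts. The change was 6.61 ± 0.17 without control 3 (n = 3 and 2, limma adjusted p = 3.11e-09) and 4.37 ± 1.29 with it (adjusted p = 0.617). The knockouts stood far above the first 2 controls and on both sides of the third. Gpx2, a glutathione peroxidase known from the gut lining, was at 2.32 and 2.30 on controls 1 and 2, 9.16 on control 3, and 8.68, 8.16 and 8.77 on the knockouts. Its change was 6.23 ± 0.20 (adjusted p = 1.16e-08), against 3.94 ± 1.32 with all arrays (adjusted p = 0.624). Its control level lay within the range of Xist, so the fold is understated on this scale. Slc7a11, the cystine importer that feeds glutathione synthesis, was at 2.63, 2.42 and 9.29 on the 3 controls and at 7.82, 8.53 and 8.50 on the knockouts. The change was 5.76 ± 0.23 (adjusted p = 1.06e-07), against 3.50 ± 1.31 with all arrays (adjusted p = 0.624). For both genes control 3 was the highest of the 6 arrays.

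**Figure D2:**
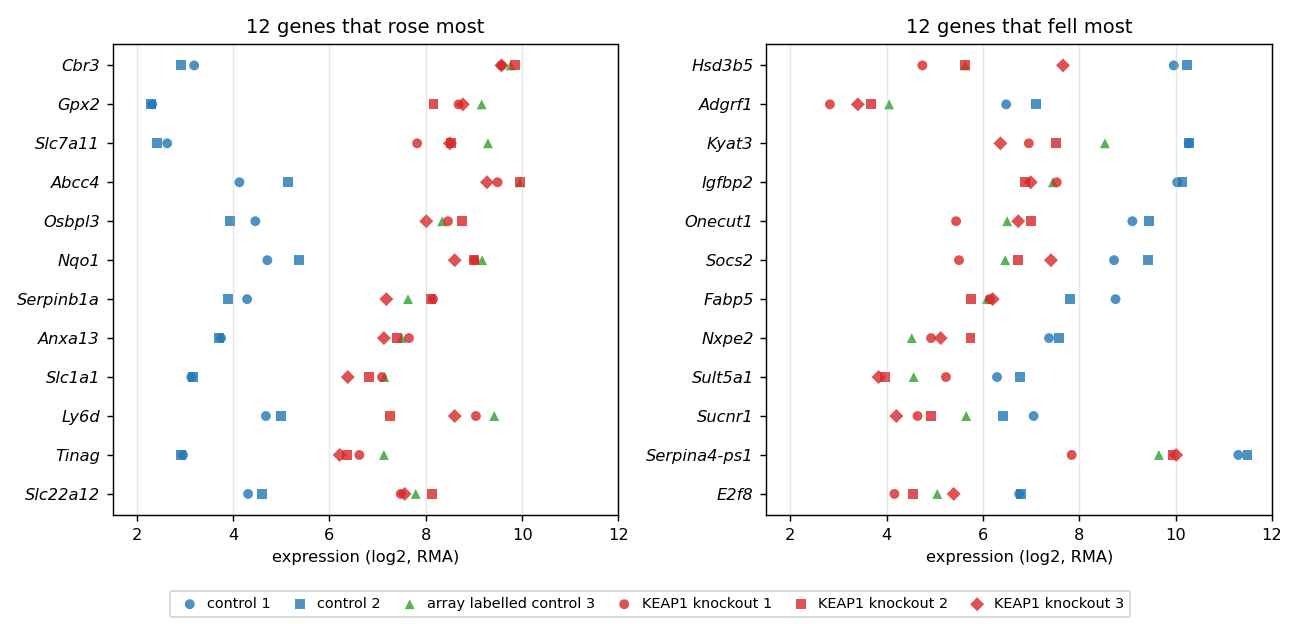
Expression (log2, RMA) on each of the 6 liver arrays of the 12 genes that rose most and the 12 that fell most without control 3, with 1 symbol per array. The knockouts are separated from controls 1 and 2 in every row, which the choice of these genes required, and control 3 lies with or near the knockouts in most rows.

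Transporters and membrane proteins made up much of the rest of the 12. Abcc4, an efflux pump for conjugates and bile acids, was at 4.13 and 5.14 on controls 1 and 2, 9.96 on control 3, and 9.49, 9.96 and 9.27 on the knockouts (4.94 ± 0.28, adjusted p = 1.89e-06, and 3.16 ± 1.05 with all arrays, adjusted p = 0.622). Slc1a1, a carrier of glutamate and cysteine, rose from 3.13 and 3.17 to 7.09, 6.82 and 6.38 (3.62 ± 0.19, adjusted p = 1.09e-06), and Slc22a12, a urate carrier of the kidney tubule, from 4.31 and 4.59 to 7.48, 8.12 and 7.56 (3.27 ± 0.24, adjusted p = 1.87e-05). Control 3 was at 7.14 and 7.79 for these carriers, at or near the knockouts, and with all arrays their changes were 2.29 and 2.15 (adjusted p = 0.624 and 0.617). Osbpl3, a lipid-binding protein, rose by 4.21 ± 0.27, Serpinb1a, an inhibitor of neutrophil proteases, by 3.73 ± 0.38, Anxa13, an annexin, by 3.67 ± 0.19, and Tinag, named for its protein in the tubular basement membrane, by 3.46 ± 0.27. With all arrays their changes were 2.83, 2.55, 2.41 and 2.07 (adjusted p from 0.617 to 0.633). Ly6d, a surface protein of the LY6 family, was the most uneven of the 12 across the knockouts, at 9.04, 7.26 and 8.60, against 4.68, 4.99 and 9.42 on the controls (3.46 ± 0.56, adjusted p = 0.00735, and 1.94 with all arrays, adjusted p = 0.661). The plot of the leading genes by array shows these levels side by side.

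Components of the switch itself held 1 call. Nfe2l2 was between 8.35 and 8.50 on the controls and between 8.34 and 8.47 on the knockouts, and the groups overlapped (0.03 ± 0.12, adjusted p = 0.933, and -0.01 ± 0.11 with all arrays, adjusted p = 0.988). Ikbkg, the gene of NEMO, was at 6.86, 6.81 and 6.40 on the controls and at 6.96, 7.20 and 7.14 on the knockouts (0.27 ± 0.12, adjusted p = 0.278, and 0.41 with all arrays, adjusted p = 0.617). Of 14 measured switch components 0 rose and 1 fell, with a median of 0.10, which turned to -0.06 with arrays centred on their medians. The fallen member was Bach2, a repressor related to the NRF2 competitor BACH1, at 6.14, 5.99 and 4.59 on the controls and 5.07, 5.60 and 5.19 on the knockouts (-0.78 ± 0.18, adjusted p = 0.0397). Control 3 was the lowest of the 6 arrays for Bach2, and with all arrays the change was -0.29 (adjusted p = 0.826).

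Among enzymes that reduce quinones, carbonyls and aldehydes, 8 of 18 measured members rose and 0 fell, with a median change of 0.55 beside -0.03 over all genes, and with all arrays 0 were called and the median was 0.35. Leaving out control 1 reduced the count to 4. Nqo1 rose by 3.83 ± 0.19 (adjusted p = 5.28e-07, and 2.46 ± 0.80 with all arrays, adjusted p = 0.617). Cbr1, a carbonyl reductase related to Cbr3, was at 8.06, 8.43 and 11.30 on the controls and at 11.25, 11.43 and 11.17 on the knockouts (3.04 ± 0.12, adjusted p = 9.98e-08, and 2.02 ± 0.59 with all arrays). Its knockouts lay close together. Ptgr1, a reductase of lipid aldehydes and prostaglandins, rose by 1.75 ± 0.27 and Akr1c19, an aldo-keto reductase, by 1.51 ± 0.23. Ugdh, whose promoter stretches are printed above, was at 9.99, 10.45 and 11.67 on the controls and at 11.57, 11.76 and 11.51 on the knockouts (1.39 ± 0.13, adjusted p = 0.000119). With all arrays the changes of Ptgr1, Akr1c19 and Ugdh were 0.98, 0.95 and 0.90 (adjusted p from 0.622 to 0.656).

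In the list of cystine import and glutathione, 8 of 15 measured genes rose and 0 fell, with a median of 0.71 (0 called and 0.46 with all arrays). The count was 5 without control 1. Gclc, the catalytic subunit of glutamate-cysteine ligase, the rate-limiting step of glutathione synthesis, was at 10.66, 11.07 and 12.01 on the controls and at 11.94, 12.13 and 12.03 on the knockouts. It rose by 1.17 ± 0.11 (adjusted p = 0.000196, and 0.78 ± 0.24 with all arrays, adjusted p = 0.617). Gsr, which returns oxidised glutathione to its reduced form, was at 9.06, 9.16 and 10.22 on the controls and at 9.95, 10.27 and 10.10 on the knockouts (1.00 ± 0.11, adjusted p = 0.000606). The synthetase Gss and the glutaredoxin Glrx rose less, by 0.74 ± 0.15 and 0.73 ± 0.13. Gclm, named for its promoter, was at 9.74, 10.10 and 10.65 on the controls and at 10.58, 10.68 and 10.52 on the knockouts (0.67 ± 0.11, adjusted p = 0.00748). With all arrays Gsr, Gss, Glrx and Gclm differed by 0.63, 0.44, 0.47 and 0.43, none of them called. The ligase subunits and the recycling enzyme thus rose together, by smaller differences than the importer Slc7a11.

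Other antioxidant lists held fewer calls. Of 15 thioredoxin and peroxiredoxin genes 4 rose and 0 fell (median 0.18), and 2 rose when control 1, control 2, knockout 2 or knockout 3 was left out. Srxn1, sulfiredoxin, which repairs overoxidised peroxiredoxins, was at 6.56, 6.65 and 9.44 on the controls and at 8.80, 8.89 and 8.92 on the knockouts (2.27 ± 0.10, adjusted p = 2.71e-07, and 1.32 ± 0.55 with all arrays). Txnrd1, the cytosolic thioredoxin reductase, rose by 1.21 ± 0.10 and its substrate thioredoxin, Txn1, by 0.44 ± 0.09. Sesn2, a stress-induced sestrin that is also a p53 target, rose by 1.06 ± 0.22. With all arrays the differences of Txnrd1, Txn1 and Sesn2 were 0.74, 0.28 and 0.80. Hmox1, haem oxygenase and a classical NRF2 target chosen after its values were seen, was at 7.33, 6.99 and 8.35 on the controls and at 7.65, 7.30 and 8.48 on the knockouts, with overlapping groups (0.65 ± 0.26, adjusted p = 0.220, and 0.26 with all arrays). In its list of 19 haem and iron genes 2 rose, the biliverdin reductase Blvrb by 1.68 ± 0.16 and the iron exporter Slc40a1 by 0.78 ± 0.15 (1.12 and 0.50 with all arrays). The median of that list, 0.04, turned to -0.12 under centring.

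NADPH supply was read from 12 genes of the pentose phosphate pathway and related dehydrogenases, of which 4 rose and 0 fell (median 0.19, 0 called with all arrays). Pgd, phosphogluconate dehydrogenase, was at 7.70, 7.93 and 9.97 on the controls and at 9.58, 9.86 and 9.50 on the knockouts (1.83 ± 0.13, adjusted p = 1.77e-05, and 1.11 ± 0.43 with all arrays). The transketolase Tkt rose by 0.86 ± 0.13, Idh2, the mitochondrial isocitrate dehydrogenase, by 0.61 ± 0.10 and the transaldolase Taldo1 by 0.49 ± 0.11 (0.59, 0.39 and 0.32 with all arrays). Without control 1, 1 of the 12 rose.

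Conjugation and export enzymes formed the next group. Of 17 glutathione S-transferases 6 rose and 0 fell (median 0.41, and 0.28 with 0 called with all arrays), and 6 or 7 rose whichever of the 5 arrays was left out. Gstm3 was at 9.77, 11.34 and 12.99 on the controls and at 12.97, 12.93 and 12.89 on the knockouts (2.38 ± 0.31, adjusted p = 0.0017). Gstm4 was at 8.73, 9.48 and 11.21 on the controls and at 11.11, 11.11 and 11.07 on the knockouts (2.00 ± 0.17, adjusted p = 7.27e-05). In both the controls spread widely and the knockouts hardly at all. Mgst3 rose by 1.94 ± 0.22, Gsta4, which conjugates the lipid aldehyde 4-hydroxynonenal, by 1.53 ± 0.16, Gstm2 by 1.5 ± 0.17 and Gstm1 by 0.81 ± 0.12. With all arrays Gstm3 and Gstm4 differed by 1.56 and 1.30, and Mgst3, Gsta4, Gstm2 and Gstm1 by 1.20, 0.95, 0.88 and 0.53. The Gstm genes are close copies, and whether their probes share signal was not tested.

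Of 10 ABC efflux pumps 5 rose and 0 fell (median 0.65, and 0.41 with 0 called with all arrays). Beside Abcc4 they were Abcc5, a pump of cyclic nucleotides, by 1.29 ± 0.21, Abcc3, which exports conjugates toward the blood, by 0.94 ± 0.16, Abcc2, which exports them into bile, by 0.64 ± 0.10, and Abcg2, by 0.58 ± 0.11 (0.85, 0.59, 0.42 and 0.39 with all arrays). Only Abcc4 rose without control 1, 3 rose without control 2, and 2 did with arrays centred on their medians. Among 26 glucuronosyltransferases, sulfotransferases and carboxylesterases 4 rose and 1 fell, with a median of 0.07 that turned to -0.09 under centring. Ces1g, a carboxylesterase, rose by 1.35 ± 0.15, and Ugt2b35, Ugt2b5 and Ugt2b34 rose by 1.14 ± 0.16, 0.63 ± 0.10 and 0.52 ± 0.08. Sult5a1 fell by 2.19 ± 0.40. With all arrays Ces1g and the Ugt2b genes differed by 0.88, 0.74, 0.42 and 0.34, and Sult5a1 by -1.53. Without control 1, 2 of the 26 rose and 0 fell. Among 35 cytochromes P450 of families 1 to 3, 1 rose and 1 fell (median -0.06). Cyp2a5, a coumarin hydroxylase, was at 10.14, 10.83 and 12.41 on the controls and at 12.41, 12.45 and 12.35 on the knockouts (1.92 ± 0.21, adjusted p = 0.000531, and 1.27 with all arrays, adjusted p = 0.617).

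**Figure D3:**
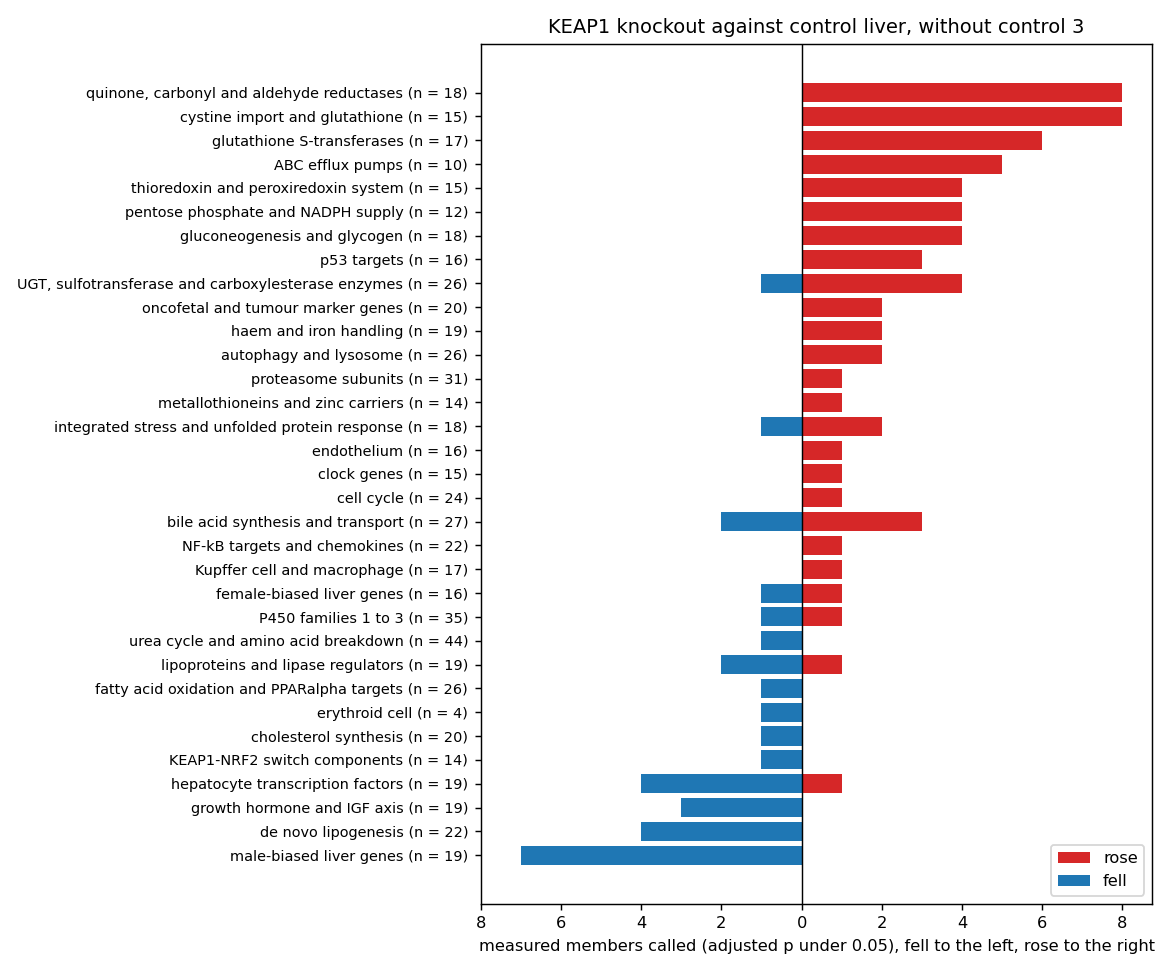
Number of measured members that rose (right) or fell (left) without control 3 in each gene list with at least 1 call, with the number of measured members after the list's name. The redox and conjugation lists reach 8 risen members and no fallen ones in the reductase and glutathione lists, and the list of male-biased liver genes has 7 fallen and no risen members; with all arrays every count is 0.

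Lipid and sugar genes moved in both directions. Cd36, a fatty acid importer, was at 7.07, 7.37 and 10.08 on the controls and at 10.31, 10.03 and 9.93 on the knockouts (2.87 ± 0.13, adjusted p = 2.71e-07, and 1.92 ± 0.56 with all arrays, adjusted p = 0.617). In the lipogenesis list 0 of 22 genes rose and 4 fell (median -0.39, and -0.21 with 0 called with all arrays), all 4 of them desaturases or elongases of fatty acid chains. Elovl5 was at 11.43, 11.22 and 10.61 on the controls and at 10.49, 10.38 and 10.12 on the knockouts, which lay below all 3 controls (-1.0 ± 0.15, adjusted p = 0.0049, and -0.76 ± 0.19 with all arrays, adjusted p = 0.617). Fads1 fell by 0.93 ± 0.14, Fads2 by 0.63 ± 0.11 and Elovl6 by 0.50 ± 0.12 (-0.51, -0.43 and -0.31 with all arrays). None of the 22 fell without control 1 and 2 fell without control 2. Among glycogen and gluconeogenesis genes 4 of 18 rose and 0 fell, with a median of 0.09 that turned to -0.07 under centring. Gbe1, the glycogen branching enzyme, rose by 1.26 ± 0.13 (adjusted p = 0.000363, and 0.81 with all arrays), and Ugp2, which makes UDP-glucose for glycogen and for glucuronidation, was at 9.72, 9.68 and 10.56 on the controls and at 10.82, 10.88 and 10.84 on the knockouts. The change of Ugp2 was 1.14 ± 0.08 (adjusted p = 1.77e-05), against 0.86 ± 0.18 with all arrays (adjusted p = 0.518), and all knockouts were above all 3 controls. The phosphoglucomutases Pgm2 and Pgm1 rose by 0.70 ± 0.16 and 0.55 ± 0.13 (0.49 and 0.33 with all arrays), and 2 of the 18 genes rose when any 1 of controls 1 and 2 or knockouts 1 and 3 was left out.

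Angptl8, a hepatocyte hormone that restrains lipoprotein lipase, had the smallest p with all arrays. It was at 8.65, 8.77 and 8.10 on the controls and at 7.38, 7.22 and 7.16 on the knockouts, so all knockouts were below all 3 controls. The change was -1.45 ± 0.14 without control 3 (adjusted p = 0.000136) and -1.25 ± 0.17 with it (adjusted p = 0.117). Kyat3, an aminotransferase of the kynurenine pathway, was at 10.27, 10.28 and 8.53 on the controls and at 6.95, 7.51 and 6.36 on the knockouts. The change was -3.33 ± 0.35 (adjusted p = 0.000355), against -2.75 ± 0.45 with all arrays (adjusted p = 0.232). Here control 3 lay between the groups, below the other controls and above every knockout. Kcnj13, a potassium channel, Ifi44l, an interferon-induced gene, and the olfactory receptor gene Olfr341 made up the rest of the 5 genes with the smallest p with all arrays (adjusted p from 0.203 to 0.232). Their highest level on any of the 6 arrays was 3.8, and the knockouts were between 2.16 and 2.84, close to the range of Xist. The lipoprotein Apom, a carrier of sphingosine-1-phosphate, fell by 0.97 ± 0.18, and Fabp5, a fatty acid binding protein, by 2.25 ± 0.22 (-0.72 and -1.52 with all arrays).

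Among the called genes for which control 3 was nearer to the other controls, the largest change belonged to Rragd, a small GTPase that brings the kinase mTORC1 to lysosomes. It was chosen after its values were seen. Rragd was at 3.10, 3.61 and 3.85 on the controls and at 5.50, 5.14 and 6.20 on the knockouts, and the groups did not overlap. The change was 2.26 ± 0.44 without control 3 (adjusted p = 0.0194) and 2.09 ± 0.39 with it (adjusted p = 0.369). Fdps, farnesyl diphosphate synthase of cholesterol synthesis, was at 8.74, 8.66 and 8.66 on the controls and at 8.28, 8.21 and 8.23 on the knockouts (-0.46 ± 0.11, adjusted p = 0.0452, and -0.44 ± 0.09 with all arrays, adjusted p = 0.533). It was the only called member of 20 cholesterol synthesis genes, whose median of 0.11 turned to -0.05 under centring. Slc22a7, an organic anion carrier of the hepatocyte also chosen after its values were seen, was at 7.12, 8.13 and 6.82 on the controls and at 6.13, 5.13 and 5.77 on the knockouts, with a change of -1.95 (-1.68 with all arrays, adjusted p = 0.464).

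Genes of growth hormone action and of male-biased expression were among the largest falls. In mice the pulsed growth hormone of males acts through STAT5B to set sex-biased liver expression. Of 19 measured male-biased genes 0 rose and 7 fell, with a median of -0.71 beside -0.03 over all genes (0 called and -0.37 with all arrays). Hsd3b5, a steroid dehydrogenase of male liver, was at 9.96, 10.23 and 5.63 on the controls and at 4.74, 5.62 and 7.66 on the knockouts. It fell by 4.09 ± 0.74 (adjusted p = 0.0139, and -2.60 ± 1.07 with all arrays, adjusted p = 0.633). The knockouts were widely spread, and control 3 lay among them. Serpina4-ps1 was at 11.30, 11.49 and 9.65 on the controls and at 7.84, 9.95 and 10.01 on the knockouts (-2.13 ± 0.50, adjusted p = 0.0492, and -1.55 with all arrays, adjusted p = 0.624). Cyp2u1, Selenbp2, Nudt7, C8b and Mup3 fell by 1.07, 1.03, 0.84, 0.72 and 0.71 (adjusted p from 0.0148 to 0.0494), and with all arrays they differed by -0.66, -0.74, -0.59, -0.46 and -0.37. The count depended on single arrays, with 0 falling without control 1, 2 without control 2 or knockout 1, and 4 without knockout 2. Of 16 female-biased genes 1 rose, the monocarboxylate carrier Slc16a5 by 1.66 ± 0.21, and 1 fell, the steroid hydroxylase Cyp17a1 by 1.30 ± 0.27 (0.86 and -0.63 with all arrays).

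In the growth hormone and IGF list 0 of 19 genes rose and 3 fell (median -0.09, 0 called with all arrays). Igfbp2, a binding protein of insulin-like growth factors, was at 10.03, 10.14 and 7.45 on the controls and at 7.53, 6.88 and 6.99 on the knockouts (-2.95 ± 0.28, adjusted p = 0.000136, and -2.07 ± 0.56 with all arrays, adjusted p = 0.617). Onecut1, the transcription factor HNF6, was at 9.10, 9.45 and 6.50 on the controls and at 5.44, 7.0 and 6.73 on the knockouts (-2.89 ± 0.39, adjusted p = 0.00194, and -1.96 ± 0.63 with all arrays). Socs2, a feedback inhibitor that growth hormone induces, was at 8.72, 9.43 and 6.46 on the controls and at 5.50, 6.73 and 7.41 on the knockouts (-2.53 ± 0.50, adjusted p = 0.0204, and -1.66 ± 0.66 with all arrays). For each of them control 3 lay within the knockout range. Igf1 itself was at 10.68, 10.79 and 10.57 on the controls and at 10.22, 10.33 and 10.18 on the knockouts, which lay below all 3 controls without passing the test (-0.49 ± 0.12, adjusted p = 0.0523, and -0.44 ± 0.11 with all arrays, adjusted p = 0.617).

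Of 19 hepatocyte transcription factors 1 rose and 4 fell (median -0.24, 0 called with all arrays), and 2 fell when any 1 of the 5 arrays was left out. Beside Onecut1, Foxa3, a pioneer factor of liver genes, was at 7.85, 7.77 and 6.69 on the controls and at 6.40, 6.30 and 6.85 on the knockouts (-1.29 ± 0.18, adjusted p = 0.00252, and -0.92 ± 0.27 with all arrays). Cebpa fell by 0.68 ± 0.14 and Nr1h4, the bile acid receptor FXR, by 0.44 ± 0.10, while Ahr, the receptor for dioxins, rose by 0.75 ± 0.15 (-0.46, -0.25 and 0.48 with all arrays). In the bile acid list, 3 of 27 genes rose, the pumps Abcc4, Abcc3 and Abcc2, and 2 fell, Nr1h4 and Fgfr4, the receptor that carries the gut's FGF15 signal (-0.77 ± 0.15, adjusted p = 0.0222, and -0.57 with all arrays). Without control 1, 1 of the 27 rose and 0 fell. E2f8, a repressor of the cell cycle, fell by 2.07 ± 0.31 (-1.5 with all arrays), and Adgrf1, an adhesion receptor, was at 6.48, 7.10 and 4.05 on the controls and at 2.82, 3.68 and 3.40 on the knockouts. The change of Adgrf1 was -3.49 ± 0.33 (adjusted p = 0.000164), against -2.57 ± 0.60 with all arrays (adjusted p = 0.612), and all knockouts were below all 3 controls.

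Immune and stress lists held from 0 to 3 calls each, where 1.83% of all genes rose and 0.808% fell. Of 21 acute phase genes 0 were called, and Lcn2, an iron-chelator carrier of inflammation, was at 7.31, 6.73 and 9.65 on the controls and at 10.54, 7.67 and 10.62 on the knockouts (2.59 ± 0.72, adjusted p = 0.0909, and 1.71 with all arrays, adjusted p = 0.653). Knockout 2 was the lowest of the knockouts for Lcn2 and also for Saa2 and Orm3 of the same list. Of 24 interferon-stimulated genes 0 were called, and of 22 NF-kB targets 1 rose, the adhesion molecule Vcam1, by 1.00 ± 0.23 (adjusted p = 0.0412, and 0.47 with all arrays). Of these 22, 17 had a change above 0, with a median of 0.30 (0.24 with all arrays). Among 18 genes of the integrated stress and unfolded protein response 2 rose, Sesn2 and Dnajb9, the latter by 0.67 ± 0.10. Xbp1 fell by 0.59 ± 0.14 (0.46 for Dnajb9 and -0.35 for Xbp1 with all arrays). Under centring 0 of the 18 rose and 1 fell. Among 16 p53 targets 3 rose, Sesn2, Cdkn1a, an inhibitor of cyclin-dependent kinases, by 0.89 ± 0.18, and Trp53inp1 by 0.80 ± 0.18, with 0.55 and 0.72 for the last pair with all arrays. None of the 16 rose under centring, or without control 1, knockout 2 or knockout 3. Of 24 cell cycle genes 1 rose, Mcm6 of the replicative helicase, by 1.13 ± 0.22, and of 31 proteasome subunits 1 rose, Psmd14, by 0.41 ± 0.10 (0.48 and 0.24 with all arrays). Of the zonation lists, 19 pericentral and 15 periportal genes, 0 were called.

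Summed levels of macrophage, stellate, endothelial and MHC class II markers were higher on all 3 knockouts and on control 3 than on controls 1 and 2. The sum of the mesothelial list, led by the keratin Krt8, was higher on them too. The sum of 4 genes of the erythroid list, led by Alas2, was 271.2, 327.5 and 352.9 on the knockouts and 383.7 on control 3. It was higher on controls 1 and 2, at 528.0 and 558.6. Sums of cholangiocyte, neutrophil, T and natural killer cell and adipocyte markers overlapped between the knockouts and controls 1 and 2. The B cell sum was barely apart, at 140.8, 101.9 and 100.8 on the knockouts and 103.3 on control 3, against 88.97 and 100.6 on controls 1 and 2. The summed linear level of 17 Kupffer cell and macrophage markers was 2501 and 2522 on controls 1 and 2, 4899 on control 3, and 4815, 2806 and 3889 on the knockouts. All 17 had a change above 0, with a median of 0.65, and 1 rose, Adgre1, the F4/80 antigen, by 0.78 ± 0.17 (adjusted p = 0.0347, and 0.44 with all arrays, adjusted p = 0.670). The call of Adgre1 was lost whichever further array of the 5 was left out. The sum of 13 stellate cell markers was 1890, 2302 and 3881 on the controls and 3260, 2504 and 3475 on the knockouts, with a median change of 0.59 and 0 called. The sum of 16 endothelial markers was 2399, 3521 and 4339 on the controls and 4281, 4191 and 4095 on the knockouts, with a median of 0.49 and 1 risen gene, Pecam1, by 0.63 ± 0.12 (adjusted p = 0.0178, and 0.39 with all arrays). None of these lists had a member under 4 on all 6 arrays. For 9 dendritic cell and MHC class II genes the sum was 926.2, 606.2 and 2039 on the controls and 1553, 1155 and 1967 on the knockouts (0 called, median 0.74). With all arrays 0 were called in these 4 lists, and the medians were 0.27 for macrophage, 0.30 for stellate, 0.31 for endothelial and 0.39 for MHC class II genes. Knockout 2 had the lowest sum of the knockouts in the macrophage, stellate and MHC class II lists.

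**Figure D4:**
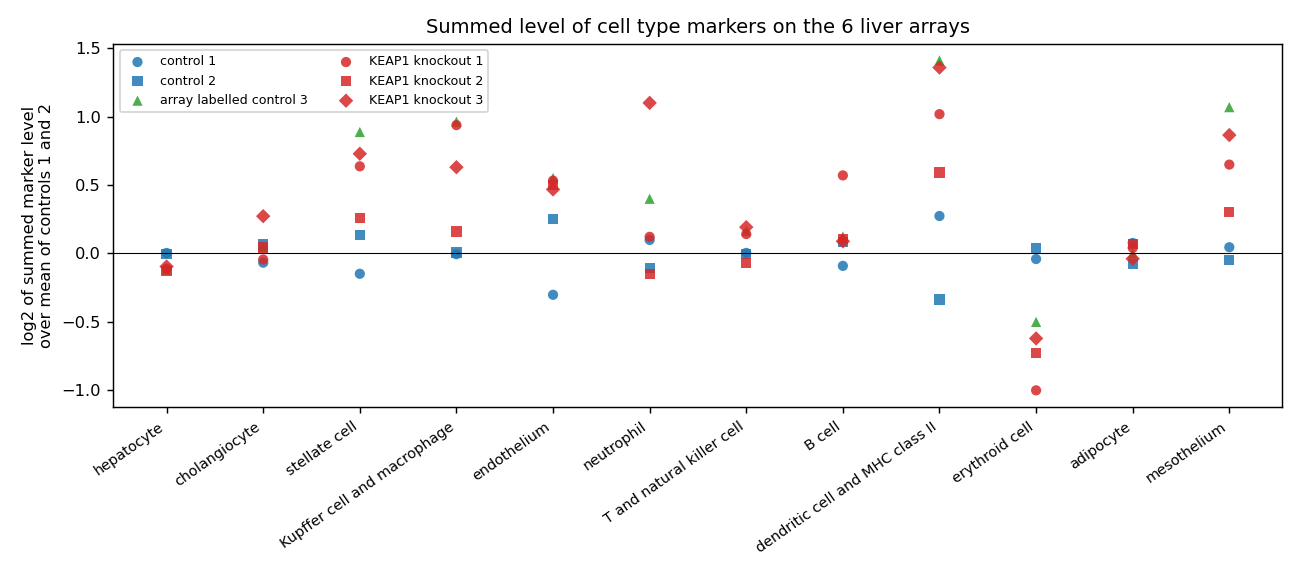
Summed linear level of each cell type's markers on each of the 6 liver arrays, as the log2 ratio to the mean of controls 1 and 2, with 1 symbol per array. The knockouts and control 3 lie above 0 for stellate cell, macrophage, endothelial, B cell, MHC class II and mesothelial markers. They lie below 0 for erythroid markers and slightly below 0 for hepatocyte markers. Krt8 and Alas2, the brightest markers of the mesothelial and erythroid lists, also gave signal on cultured hepatocyte arrays.

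The sum of 11 hepatocyte markers was 70180 and 69880 on controls 1 and 2, 64480 on control 3, and 64720, 64110 and 65520 on the knockouts, with 0 of 11 called and a median of -0.11. Sums of 7 mesothelial markers, led by the keratin Krt8, were 1123, 1054 and 2286 on the controls and 1708, 1344 and 1984 on the knockouts. Krt8 and Krt18 of this list were between 9.10 and 9.71 on control and KEAP1 knockout hepatocytes. Of the 7 markers 3 were under 4 on all 6 liver arrays, so the sum cannot be read as a level of mesothelium. Of 39 extracellular matrix genes 34 had a change above 0, with a median of 0.60 (0.30 with all arrays), and 0 were called. Col1a1, the main chain of type I collagen, was at 5.38, 5.52 and 7.70 on the controls and at 6.74, 6.61 and 6.99 on the knockouts (1.33 ± 0.43, adjusted p = 0.138, and 0.58 ± 0.57 with all arrays, adjusted p = 0.801). Without liver double knockout 3 in the estimate of the spread, 14 of the 39 matrix genes, 5 of the stellate, 5 of the endothelial and 2 of the macrophage genes rose. Endothelial calls went from 1 to 7 without control 2 and macrophage calls from 1 to 5 without knockout 2. Alas2 of the erythroid list fell by 1.13 ± 0.25 (-0.97 with all arrays). It was at 5.78, 8.86 and 8.92 on the hepatocyte controls and at 8.54, 8.09 and 7.74 on the hepatocyte knockouts. The erythroid sum that it leads therefore cannot be read as a level of erythroid cells. Of 9 cholangiocyte markers, 9 neutrophil, 13 T and natural killer cell, 7 B cell and 9 adipocyte markers 0 were called. The part of these cells in the changes above was not tested.

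KEAP1 loss was then read on arrays that are not among the 6 compared above, although those in liver enter its estimate of the spread. In livers that all lack NEMO, the double knockout was compared with the NEMO knockout in the fit that leaves out liver control 3, and 260 genes were higher (1.38%) and 268 lower (1.42%), or 2.81% in either direction. Of the 345 risen genes 147 were also higher there, which is 42.6% of the risen and 56.5% of the genes higher in that comparison, and 2 were lower. Of the 152 fallen genes 52 were also lower, which is 34.2% and 19.4%, and 0 were higher. Without liver double knockout 3 the shares of the risen and the fallen were 44.1% and 30.3%. With all 12 liver arrays in the fit, 197 genes were called, 78 higher and 119 lower, and they held 10.7% of the risen and 7.24% of the fallen genes in the same direction. Cbr3 was at 3.82, 3.40 and 3.30 in NEMO knockout livers and at 9.94, 9.86 and 9.55 in double knockouts (6.28, adjusted p = 1.55e-09). Slc7a11 was at 3.15, 2.83 and 2.70 against 9.87, 9.62 and 10.23 (7.01, adjusted p = 6.24e-09). For Cbr3 the double knockouts were at the level of the KEAP1 knockouts, while for Slc7a11 they lay above every KEAP1 knockout. Gpx2, Abcc4 and Nqo1 were higher by 5.61, 4.57 and 3.50, and Srxn1 and Pgd by 1.90 and 1.70 (adjusted p at most 1.14e-05). Gclc and Gsr were higher by 1.19 and 1.16.

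**Figure D5:**
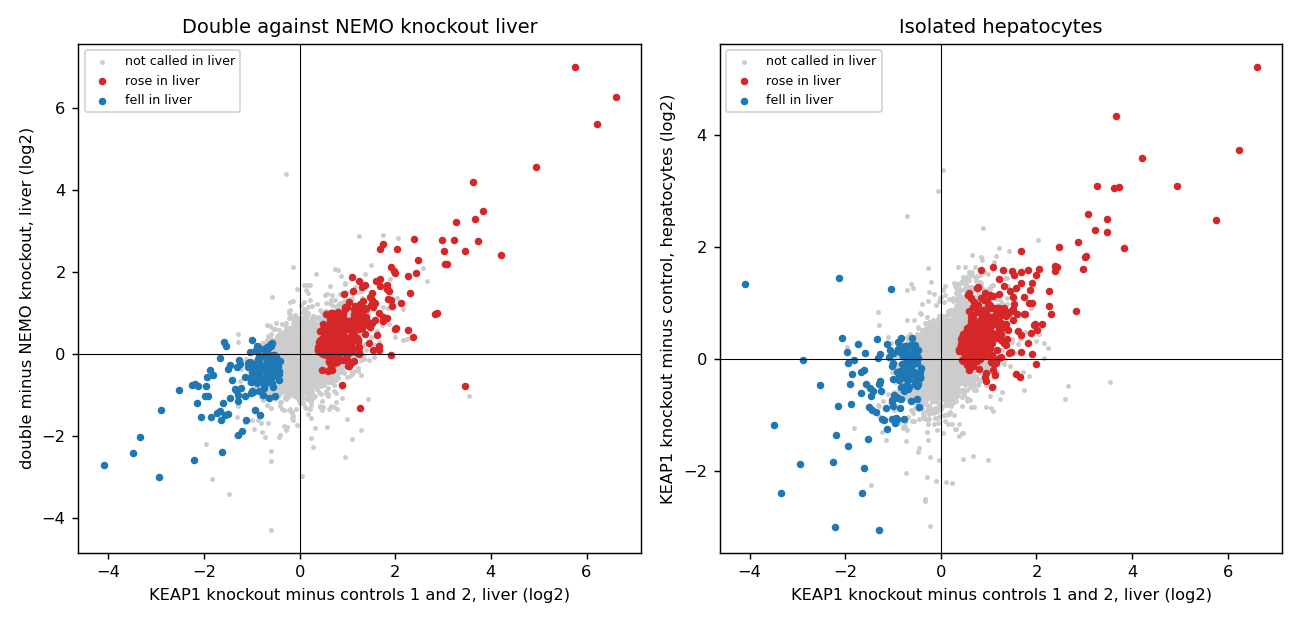
Change with KEAP1 loss of each of 18820 genes in liver without control 3 (horizontal, log2) against the double minus the NEMO knockout liver (left) and KEAP1 knockout minus control hepatocytes (right), arrays that are not among those whose difference the horizontal axis shows, with genes that rose or fell in liver coloured. Most leading risen genes lie high in both panels, while Ly6d is at -0.77 in the left panel. Several fallen genes, Hsd3b5 at the far left among them, lie low in the left panel and not in the right. There the change of Hsd3b5 is 1.33, or -0.94 without hepatocyte control 1.

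Some genes called above were not called between double and NEMO knockouts, and others changed in the same direction. Ly6d was at 10.60, 8.79 and 10.66 in NEMO knockout livers and at 9.69, 9.09 and 8.96 in double knockouts (-0.77, adjusted p = 0.583). Nfe2l2 was lower in double than in NEMO knockouts by 0.93 (adjusted p = 0.000555). Gstm3 and Idh2 differed by 0.43 and -0.20 (adjusted p = 0.578 and 0.381). Hsd3b5 was at 7.32, 5.15 and 6.47 in NEMO knockouts and at 3.45, 4.21 and 3.16 in double knockouts (-2.71, adjusted p = 0.0542). Its level without NEMO was thus already below controls 1 and 2. Igfbp2 and Nxpe2 were lower by 2.98 and 2.57, and Fads1, Fads2, Elovl6 and Elovl5 by 1.37, 1.07, 1.02 and 0.90 (adjusted p at most 0.00361). Angptl8 differed by -0.25 (adjusted p = 0.401). No test of the difference between these comparisons was made.

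In cultured hepatocytes 272 genes were higher (1.45%) and 80 lower (0.425%) in KEAP1 knockouts than in controls, or 1.87% in either direction. The higher genes included markers of other cells, 12 of 16 endothelial, 4 of 13 stellate, 3 of 17 macrophage and 3 of 9 MHC class II genes. Their medians were 1.25, 0.61, 0.88 and 0.28, and 0 genes of these lists were lower. Of 11 hepatocyte markers 0 were called. The part of other cells in the hepatocyte counts and overlaps was not tested. Of the 345 risen liver genes 97 were also higher there, 28.1% of the risen and 35.7% of the hepatocyte calls, and 0 were lower. Of the 152 fallen genes 19 were also lower, 12.5% and 23.8%, and 0 were higher. Hepatocyte control 1 had Xist at 9.65 and Eif2s3y at 2.51, against 2.60 and 2.30 and 7.82 and 7.71 on the other controls, although the labels give males. Without it the shares of the risen and fallen were 25.2% and 13.8%. Cbr3 was at 4.11, 3.04 and 4.32 on the hepatocyte controls and at 9.02, 9.05 and 9.06 on the knockouts (5.22, adjusted p = 2.54e-07). Nqo1 was at 7.77, 5.00 and 6.63 against 8.65, 8.07 and 8.62 (1.98, adjusted p = 0.0696). Without hepatocyte control 1 the change of Nqo1 was 2.64 (adjusted p = 0.00647). Control levels of Nqo1 were more spread in culture than on liver controls 1 and 2. Hepatocyte control 2, at 5.00, lay between those liver controls, and hepatocyte controls 1 and 3 lay above them. Anxa13 was higher by 4.35 and Osbpl3 by 3.59, and of the fallen genes Kyat3 was lower by 2.40, Nxpe2 by 3.01 and Igfbp2 by 1.89 (adjusted p at most 0.0284). Without hepatocyte control 1 Igfbp2 was at -1.74 (adjusted p = 0.0841), and Kyat3 at -2.03 (adjusted p = 0.00737).

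Hsd3b5, Onecut1 and Socs2, which fell in liver, were not called in culture. Hsd3b5 was at 3.09 on hepatocyte control 1, the array with high Xist, at 10.31 and 9.53 on the other controls and at 9.33, 8.83 and 8.77 on the knockouts (1.33, adjusted p = 0.732). Without hepatocyte control 1 its change was -0.94 ± 0.44 (adjusted p = 0.415), so the direction rests on that array. Onecut1 was at 7.52, 8.85 and 8.99 on the hepatocyte controls and at 8.66, 7.77 and 8.86 on the knockouts, with overlapping groups (-0.02, adjusted p = 0.991). Socs2 differed by -0.48 (adjusted p = 0.738), and without hepatocyte control 1 Onecut1 and Socs2 differed by -0.49 and -0.89 (adjusted p = 0.753 and 0.502). Of the 19 male-biased genes 0 were called in hepatocytes with or without hepatocyte control 1, with medians of 0.87 and 0.19. Across all 3 comparisons, which compare different arrays although those in liver share an estimate of the spread, 68 genes rose and 15 fell, or 21 and 9 with all 12 liver arrays in the double against NEMO comparison. The difference between tissues was tested on all 24 arrays, as the liver change minus the hepatocyte change, and limma called 0 genes (1069 at an unadjusted p under 0.05). Without liver control 3, 2 were (0.0106%), Slc7a11 with a larger change in liver and Ifi44l with a lower one (0.00531% each), and with hepatocyte control 1 also left out, 0 were (1423 at an unadjusted p under 0.05).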

How the data were processed

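Expression was deposited as log2 values for each probe set of each array. Per the submitters' processing notes the authors used RMA, and no source used here gives its software or options. RMA scales arrays to each other, so a change in total RNA is not seen, and low levels are compressed. The file held 35556 probe sets, of which 21218 had 1 gene symbol in the platform annotation, 1881 several and 12457 were not named. A gene with several probe sets, as 1386 of 18820 had, was represented by the brightest. Precision is limited by the 3 arrays of a group.

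Testing used limma 3.58.1 under R 4.3.3 (lmFit, eBayes with an intensity trend, two-sided) on all 12 liver arrays, or 11 without control 3. P-values were adjusted by Benjamini-Hochberg over 18820 genes, each comparison alone, with a threshold of 0.05. Changes are differences of log2 means ± the standard error of the fit. On simulated data with changes of 1 and 2 on the log2 scale, 70% and 96% were called in the comparison without control 3. With all arrays 73% and 97% were called, where the real data gave 0 calls. The changed genes were drawn at random, and no simulated control was set at knockout level. These shares thus do not give the sensitivity for these data. Whether replicate numbers pair the arrays was checked by the correlation of residuals. The members, the 47 gene lists and the tests were chosen with earlier results of these data known. Named were Keap1, Nfe2l2 and Ikbkg, the 12 genes that rose most and the 12 that fell most with no overlap of groups, up to 6 called members of a list (or the 3 largest changes where none was called), and the 5 smallest p with all arrays. Not every gene named by these rules is described above. Other genes are marked as chosen later, apart from Gclm, Mup3, Mki67 and the array checks Alb, Xist, Eif2s3y and Adipoq. Of 902 list symbols 801 were measured. Scan dates were not used here. Alternatives were other moderation, filters, scaling, probe set rules and arrays left out. Overlaps without hepatocyte control 1 or liver double knockout 3 or with all 12 liver arrays, and hepatocyte values without control 1, were added after the data were seen.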

Additional observations from a re-analysis of the deposited data

Results flagged for a closer look

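For 2 genes the change with KEAP1 loss in liver differed from that in cultured hepatocytes when liver control 3 was left out, by a test of the difference itself (limma, adjusted over 18820 genes). Slc7a11 changed by 5.76 in liver and by 2.49 in hepatocytes, a difference of 3.27 ± 0.50 (adjusted p = 0.04). On the 3 hepatocyte knockouts it was at 4.99, 6.43 and 5.57, below every liver knockout, while the hepatocyte controls, at 2.98, 3.34 and 3.21, were near liver controls 1 and 2. Ifi44l changed by -1.08 in liver and by 0.03 in hepatocytes, a difference of -1.11 ± 0.18 (adjusted p = 0.0463). Its hepatocyte levels were between 2.34 and 2.66, close to the highest Xist level in liver, 2.56. With all arrays the difference of Slc7a11 was 1.02 (limma adjusted p = 0.977), and 0 genes differed between the tissues at this threshold. With liver control 3 and hepatocyte control 1 both left out, 0 genes differed too. Slc7a11 was at 9.29 on liver control 3, and its liver change with that array was 3.50. That array was doubted for its NRF2 target levels, so leaving it out is not an independent choice here. Liver and cultured cells also differ in culture time and cell makeup, whose part was not tested.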

How the results depend on the processing

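The number of calls depended most on the arrays used. With all arrays it ranged from 0 to 497 as 1 array was left out, with 1 call under a replicate block and 2 without liver double knockout 3. Without control 3 it ranged from 148 to 393 as a further array was left out, against 497, and was 990 without liver double knockout 3. It was between 384 and 634 under the other settings, with 626 under the replicate block. Same-numbered arrays had residual correlations of -0.054, 0.184 and 0.085, so the numbers are not taken to pair the samples. The block gave 369 calls in hepatocytes, 725 between double and NEMO knockouts and 0 for the difference between tissues.

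In hepatocytes the count was 155 with the 2 groups alone, 232 with no intensity trend and from 123 to 405 as 1 array was left out. Centring took its calls from 272 higher and 80 lower to 189 and 165. Double against NEMO knockout liver gave 333 with the 2 groups alone, 197 with all 12 liver arrays and from 323 to 651 as 1 array was left out. The difference between tissues gave from 0 to 5, with 2 without liver control 3.

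Over the named genes without control 3, 1707 of the values under alternatives kept direction and side of the threshold, 253 lost the call, 41 gained one and 6 reversed. With all arrays 2032 kept both, 101 gained a call and 19 reversed. No reversed value was called. Without control 3, Nfe2l2 was at -0.01 with the replicate block, at -0.01 when quantile-normalized again, at -0.13 when centred and from -0.01 to 0.06 as 1 array was left out, and Jchain from -0.02 to 0.71. With all arrays the ranges as 1 array was left out were -0.05 to 0.03 for Nfe2l2, -0.63 to 1.42 for Mmp12, -0.01 to 0.49 for Sox9, -0.02 to 0.92 for S100a9, -0.41 to 0.14 for Klrb1c, -0.10 to 0.34 for Cd8a and -0.08 to 0.29 for Cd3g. They were -0.02 to 0.71 for Jchain, -0.13 to 0.93 for H2-Eb1 and -0.46 to 0.12 for Plin4, and Cd3g was at -0.04 when centred. The cause of these changes was not tested.

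With 2 controls left, every call rests on those arrays, and levels near 2 to 3 on the log2 scale are near the background, so folds from there are understated.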

Other observations

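Several genes outside the gene lists were called in the same direction in liver, in hepatocytes and between double and NEMO knockout livers. Those named here were chosen after their values were seen. Heph, hephaestin, a ferroxidase that works with iron export, was at 3.34 and 3.59 on controls 1 and 2, 7.27 on control 3, and 6.68, 7.11 and 6.29 on the knockouts (log2 change 3.22 ± 0.23 without control 3, limma adjusted p = 1.65e-05, and 1.96 with all arrays, adjusted p = 0.624). It was higher by 2.31 in knockout hepatocytes and by 2.80 in double against NEMO knockout livers. Slc48a1, which carries haem out of lysosomes, was at 7.08, 7.84 and 9.60 on the controls and at 9.19, 9.29 and 9.47 on the knockouts (1.86 ± 0.18, and 1.15 with all arrays), with 1.24 in hepatocytes and 1.35 between double and NEMO knockouts. Gucy2c, guanylate cyclase C, the gut receptor of guanylins, rose by 2.39 ± 0.36, and Slc6a9, a glycine carrier, by 1.36 ± 0.17 (1.55 and 0.89 with all arrays), with 0.76 for Slc6a9 in hepatocytes.

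Among fallen genes, Avpr1a, the vasopressin receptor of hepatocytes, was at 7.62, 7.89 and 5.61 on the controls and at 5.97, 6.00 and 6.45 on the knockouts (-1.61 ± 0.18, adjusted p = 0.000591, and -0.90 with all arrays, adjusted p = 0.654). It was also lower by 1.95 in hepatocytes and by 2.39 in double against NEMO knockout livers, and control 3 was the lowest of the 6 arrays. Slc43a1, a carrier of large neutral amino acids, fell by 1.36 ± 0.22 and Pglyrp2, a liver amidase of bacterial peptidoglycan, by 0.83 ± 0.14 (-0.93 and -0.60 with all arrays).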
